A study of Mus musculus with 6 samples.

Results

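The Reg genes encode small secreted proteins with a C-type lectin fold, first found in regenerating pancreatic islets. In the healthy pancreas Reg1 and Reg2 are products mainly of acinar cells, the enzyme-secreting cells that surround the islets. The Reg3 genes are induced in acinar cells during pancreatitis and in gut epithelium, where cytokines of the IL-6 and IL-22 type act through the transcription factor STAT3.

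The 6 Reg genes of the table described here, matched by gene name, are Reg1, Reg2, Reg3a, Reg3b, Reg3d and Reg3g, of 54532 genes listed. RNA-seq was made from mouse pancreatic islets with the cell type given as beta cell, in 3 control libraries of genotype wt and 3 of genotype Cko, a conditional knockout of Bcas2 (Bcas2 cKO). The BCAS2 protein belongs to the Prp19 complex of the spliceosome, and the series design speaks of a knockdown. The comparison asks which transcripts differ between islets with and without reduced Bcas2. The sources used here do not give the strain, age, sex, Cre driver, deleted stretch of Bcas2 or pooling of animals. Whether each library is a separate animal is not stated, and the p-values cover the spread among these libraries only, and that spread may be technical. Control columns carry the numbers 1, 3 and 4 and Bcas2 cKO columns the numbers 3, 4 and 5. The labels number the Cko samples 1, 3 and 4, so no column carries the label's number 1 and no label the column's number 5. That column is used as a member of its group only. Values are the deposited FPKM, reads scaled to gene length and to a depth that differs from the total of reads on genes. That depth was 1.02, 0.890 and 0.967 times the total in control libraries 1, 3 and 4. In Bcas2 cKO libraries 3, 4 and 5 it was 1.11, 1.04 and 1.02 times the total.

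Bcas2 itself was 10.3, 15.0 and 11.2 FPKM in control libraries 1, 3 and 4, and 8.76, 8.40 and 9.14 FPKM in Bcas2 cKO libraries 3, 4 and 5. The groups did not overlap, but the log2 fold change of -0.42 (SE 0.13) had a limma adjusted p of 0.083 and missed the threshold of 0.05. The 2-sided exact permutation p was 0.1, the smallest that 3 against 3 libraries allow. Without control library 1 the log2 fold change was -0.52 (limma adjusted p 0.049), and with libraries scaled without acinar enzymes and Reg genes it was -0.14 (adjusted p 0.384). Control libraries held 15170439 to 15594871 reads on genes, and Bcas2 cKO libraries 16351800 to 16904326. The insulin genes were the beta cell markers of highest level, and Gcg, the glucagon gene of alpha cells, stood at 17728 to 26311 FPKM, so RNA of other islet cells was present. The 35 acinar enzyme genes took 0.707 to 1.72% of control reads and 2.29 to 6.41% of Bcas2 cKO reads.

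Control library 1 stood apart from the other controls in Reg genes and in immunoglobulin transcripts. Genes were ranked by how far its log2(FPKM + 1) value lay above the higher of control libraries 3 and 4. The first 10 of 13723 genes were 8 immunoglobulin or J chain genes together with Reg3a (rank 4) and Reg3b (rank 8). Reg2 ranked 20, Reg3d 43 and Reg1 346, beside 178 for Prss2 and 124 for Cpb1, both acinar enzymes. This ranking and the immunoglobulin genes were chosen after the values were seen. Fold changes of the tested Reg genes are therefore given with and without control library 1. So are the differences of their log2 ratios to acinar genes, where computed. Correlations and shares of the summed Reg FPKM are given with all 6 libraries only.

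All 6 genes lie side by side on mouse chromosome 6, in a span of 98.2 kb (78370657 to 78468872, GRCm38) that holds no other gene of the table. Their order is Reg3b, Reg3d, Reg3a, Reg2, Reg1 and Reg3g, with Reg3d and Reg3g on the minus strand. Reg1 and Reg2 were the most alike, with 81.5% identical bases in the aligned part of their GENCODE transcripts, and the other pairs had 63.9 to 75.9%. No stretch of 50 bases in the transcripts of Reg2, Reg3a, Reg3b, Reg3d or Reg3g occurred in a transcript of another gene. In Reg1 3.74% of such stretches did, none of them in a Reg gene.

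Stretches before the transcription start are shown for 4 members. Relative to acinar genes, the libraries were ordered differently in Reg1 than in Reg2, Reg3a and Reg3b, as described further on. All 6 members were matched by symbol in the RefSeq promoter table (GRCm38.p6), and the longest run outside GENCODE exons is printed, 5′ to 3′ on the gene's strand. Capitals mark matches of 3 motifs searched on both strands. They include TTCNNNGAA, the palindrome bound by STAT factors, and TATAAA, the TATA box. The third is TGGGAA, with its reverse complement, the core read by RBPJ-type factors such as acinar RBPJL.
Reg1, chr6:78425733-78425929, plus strand: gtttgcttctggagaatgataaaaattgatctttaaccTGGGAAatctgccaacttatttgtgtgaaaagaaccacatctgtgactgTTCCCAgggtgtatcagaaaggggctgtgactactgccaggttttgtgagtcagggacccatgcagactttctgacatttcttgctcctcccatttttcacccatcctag
Reg2, chr6:78404905-78405154, plus strand: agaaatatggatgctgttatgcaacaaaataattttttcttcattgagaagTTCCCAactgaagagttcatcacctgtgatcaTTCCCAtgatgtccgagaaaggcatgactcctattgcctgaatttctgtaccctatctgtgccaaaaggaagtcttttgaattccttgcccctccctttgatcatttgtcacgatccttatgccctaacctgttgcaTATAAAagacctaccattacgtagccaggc
Reg3a, chr6:78380459-78380708, plus strand: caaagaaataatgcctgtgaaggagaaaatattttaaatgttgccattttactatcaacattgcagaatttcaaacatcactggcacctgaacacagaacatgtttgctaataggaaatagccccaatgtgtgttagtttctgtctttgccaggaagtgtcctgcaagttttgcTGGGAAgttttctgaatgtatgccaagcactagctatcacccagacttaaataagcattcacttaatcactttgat
Reg3b, chr6:78370707-78370860, plus strand: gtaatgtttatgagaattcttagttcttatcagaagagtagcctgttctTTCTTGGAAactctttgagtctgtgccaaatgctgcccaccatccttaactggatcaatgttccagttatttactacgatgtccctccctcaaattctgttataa

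Over the 250 bases before the start, TTCNNNGAA occurred in Reg3b (TTCTTGGAA, 129 to 121 bases upstream) and Reg3d (TTCCCAGAA, 238 to 230 bases upstream). That is 2 of 6 members, and 7.02% of all 32851 promoters held it. TGGGAA occurred in 5 of 6 members, all but Reg3b, and in 21.6% of all promoters, and 1 match in Reg3d lies inside its TTCNNNGAA match. TATAAA occurred in Reg1, Reg2, Reg3b and Reg3g, 4 of 6 members, and in 12.4% of all promoters. In Reg1 and Reg3b it falls at or beyond the end of the printed run. These are matches of letters only.

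Reg1 was the most abundant member in 5 of the 6 libraries and the only one called between the groups. It was 189, 131 and 109 FPKM in control libraries 1, 3 and 4, and 326, 483 and 1046 FPKM in Bcas2 cKO libraries 3, 4 and 5. Every Bcas2 cKO library lay above every control, and library 5 was far above the others. Means were 143 ± 41.6 and 618 ± 378 FPKM (SD, n = 3 each), and the log2 fold change was 1.97 (SE 0.42, 95% interval 0.97 to 2.97, limma adjusted p 0.026). Here and below, "rose" and "fell" mean a p under 0.05 after Benjamini-Hochberg adjustment over all genes tested (6.97% rose and 7.55% fell, 14.5% in all). Every fold change is a difference of mean log2(FPKM + 1), and so is understated for low genes. In bulk RNA, fewer cells of a type and less RNA per cell cannot be told apart. Without control library 1 the value was 2.19 (limma adjusted p 0.033). The call was lost without control library 3 (1.93, limma adjusted p 0.076), control library 4 (1.79, 0.088) or Bcas2 cKO library 4 (2.06, 0.071). With 1 of 5 tested members risen, beside 6.97% of all genes tested, the call is read as a result on Reg1 only.

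Reg2, the close relative of Reg1, overlapped between the groups. It was 295, 47.5 and 34.7 FPKM in control libraries 1, 3 and 4, and 176, 208 and 400.5 FPKM in Bcas2 cKO libraries 3, 4 and 5. Control library 1 exceeded 2 of the 3 Bcas2 cKO libraries, while control libraries 3 and 4 lay below all of them. The log2 fold change was 1.62 (SE 0.78, 95% interval -0.22 to 3.46, limma adjusted p 0.204). Without control library 1 it was 2.56 (limma adjusted p 0.011).

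Reg3a, a secreted lectin gene of the Reg3 branch, was 15.1, 0.0898 and 0 FPKM in control libraries 1, 3 and 4, and 5.01, 6.20 and 10.3 FPKM in Bcas2 cKO libraries 3, 4 and 5. In reads, these were 198, 1 and 0 in control and 75, 90 and 147 in Bcas2 cKO. The highest library was thus a control, the next 3 were Bcas2 cKO, and the other controls were at or next to 0. The 0 in control library 4 allows up to 0.248 FPKM at 3 reads, a limit for counting error only. The log2 fold change was 1.60 (SE 1.02, 95% interval -0.82 to 4.02, limma adjusted p 0.329), and 2.92 (adjusted p 0.0047) without control library 1.

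Reg3b, also known as pancreatitis-associated protein, showed the same split of the controls. It was 17.6, 0.714 and 0.715 FPKM in control libraries 1, 3 and 4, and 14.9, 7.26 and 10.1 FPKM in Bcas2 cKO libraries 3, 4 and 5. Control library 1 was the highest of the 6 libraries and 24.6-fold above the next control. The log2 fold change was 1.58 (SE 0.90, 95% interval -0.55 to 3.70, limma adjusted p 0.276), and 2.72 (adjusted p 0.0051) without control library 1.

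Reg3d, the mouse relative of the hamster islet neogenesis-associated protein, was 16.3, 3.88 and 2.61 FPKM in control libraries 1, 3 and 4. In Bcas2 cKO libraries 3, 4 and 5 it was 11.7, 10.9 and 30.2 FPKM. Control library 1 lay above Bcas2 cKO libraries 3 and 4 and below library 5. The log2 fold change was 1.32 (SE 0.63, 95% interval -0.17 to 2.80, limma adjusted p 0.203), and 2.0 (adjusted p 0.034) without control library 1.

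Reg3g, a bactericidal lectin gene of the gut, was near the limit of detection. It was 0.418, 0 and 0.0966 FPKM in control libraries 1, 3 and 4 (14, 0 and 3 reads) and 0.443, 0.296 and 0.247 FPKM in Bcas2 cKO libraries 3, 4 and 5 (17, 11 and 9 reads). The groups overlapped, and with a mean under 1 FPKM the gene was not tested, so 5 of the 6 members passed the filter on low values. Reg4, a family member on another chromosome and not among the 6, had 0 reads in every library, which allows up to 0.162 to 0.218 FPKM at 3 reads.

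**Figure D1:**
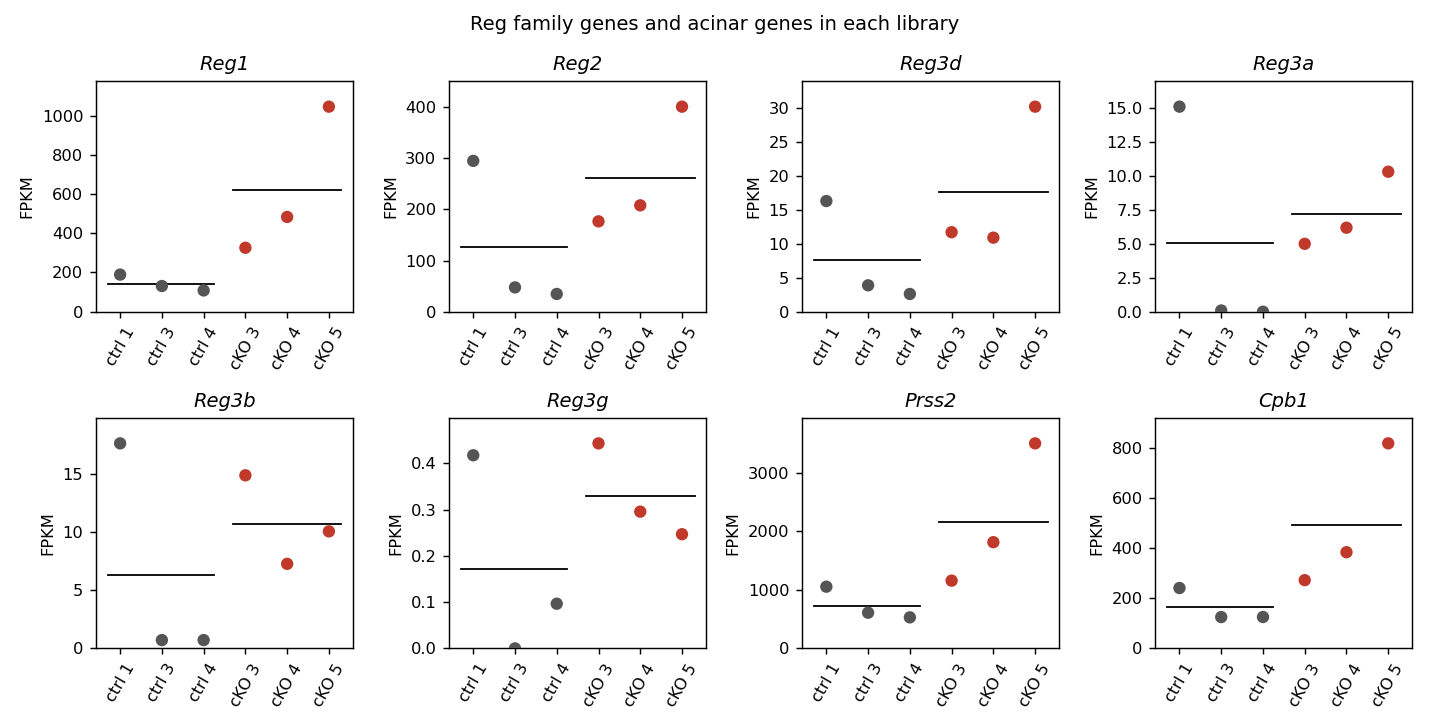
FPKM of the 6 Reg genes, Prss2 and Cpb1 in each library (grey, control libraries 1, 3 and 4; red, Bcas2 cKO libraries 3, 4 and 5), with a line at each group mean and vertical axes from 0. Reg1, Prss2 and Cpb1 do not overlap between groups, whereas control library 1 is the highest library for Reg3a (15.1 FPKM) and Reg3b (17.6 FPKM).

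The number of members called differed with control library 1. With all 6 libraries 1 of 5 tested members rose, and without control library 1 all 5 passed, where 6.97% of the 13709 genes then tested rose. That library was singled out for its high values in these same genes, so leaving it out raises their differences by construction, and nothing is read from the 5 calls, their p-values or the share beside them. Prss2, a trypsinogen gene, was 1054, 610.1 and 530.2 FPKM in control libraries 1, 3 and 4 and 1158, 1814 and 3503 FPKM in Bcas2 cKO libraries 3, 4 and 5. Cpb1, the carboxypeptidase B gene, was 241, 125 and 125 and 272, 383 and 817 FPKM in the same order. In both genes library 1 was the highest control and no control reached a Bcas2 cKO library. Among the members only Reg1 lacked overlap in this way, as did 16.8% of all genes tested in that direction. Log2 fold changes were 1.48 (SE 0.44, limma adjusted p 0.067) for Prss2 and 1.49 (SE 0.44, adjusted p 0.064) for Cpb1. Without control library 1 they were 1.77 (limma adjusted p 0.049) and 1.81 (adjusted p 0.045).

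**Figure D2:**
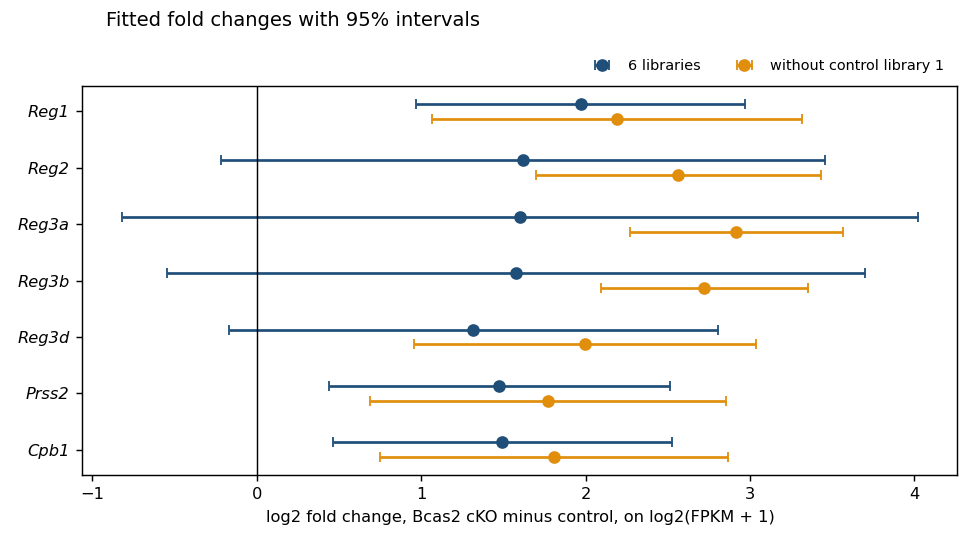
Log2 fold changes (Bcas2 cKO minus control, on log2(FPKM + 1)) with 95% intervals from limma for the 5 tested Reg genes, Prss2 and Cpb1, with 6 libraries (blue) and without control library 1 (orange). With 6 libraries the intervals of Reg2, Reg3a, Reg3b and Reg3d include 0, and without control library 1 none of the 7 intervals does.

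Most acinar enzyme transcripts were higher in every Bcas2 cKO library than in every control. Of 33 acinar enzyme genes tested 12 rose and 21 did not pass, and without control library 1 22 rose. Their median log2 fold change was 1.61, that of the 5 tested Reg genes 1.60, and that of all genes tested -0.03. Amy2b, an amylase gene, rose by 2.52 on the log2 scale, the zymogen granule genes Zg16 and Sycn by 2.02 and 1.96, and the trypsinogen gene Try4 by 1.86. The split of reads among closely similar amylase and trypsinogen genes is uncertain. Summed acinar enzymes ranged over 5918 to 13736 FPKM among controls and 17088 to 51662 FPKM among Bcas2 cKO libraries, and the defining enzymes Ctrb1, Cpa1 and Pnlip were above 0 in every library. Of 5 acinar transcription factor genes 2 were tested, and Rbpjl rose from 0.607 ± 0.418 to 2.37 ± 1.08 FPKM (SD, n = 3 each, limma adjusted p 0.046). Control library 1 was the highest control in 31 of the 33 enzyme genes. The part of acinar RNA in the Reg differences was not tested.

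Set against Prss2 plus Cpb1 of the same library, Reg1 differed between groups without overlap. Per 1000 FPKM of these acinar genes there were 146, 178 and 166 FPKM of Reg1 in control libraries 1, 3 and 4, and 228, 219.8 and 242 FPKM in Bcas2 cKO libraries 3, 4 and 5. The mean log2 ratios differed by 0.50, a 1.41-fold higher ratio in Bcas2 cKO. The 2-sided exact permutation p was 0.1, the smallest possible, and 0.4 adjusted over the 4 ratios tested. Against the sum of all 35 acinar enzymes the log2 difference was 0.24, again with an exact permutation p of 0.1. Without control library 1 the log2 difference for Prss2 plus Cpb1 was 0.42 (exact permutation p 0.2). Prss2 and Cpb1 had log2 fold changes of 1.48 and 1.49, below the acinar median of 1.61. Some other acinar genes came near or above Reg1 (1.97), such as Sycn (1.96) and Zg16 (2.02). A higher ratio to Prss2 plus Cpb1 is thus not particular to Reg1.

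The ratios of the other members overlapped. Reg2 had 228, 64.6 and 52.9 FPKM per 1000 in control and 123, 94.5 and 92.7 in Bcas2 cKO, with a log2 difference of 0.16 (exact permutation p 1.0). It was 0.81 without control library 1, -0.10 and -0.24 without control libraries 3 and 4, and -0.10 against all acinar enzymes, so its sign was not settled. Reg3b had 13.6, 0.971 and 1.09 in control and 10.4, 3.31 and 2.33 in Bcas2 cKO, with a log2 difference of 0.82 (exact permutation p 0.6). Leaving out 1 library moved it between 0.16 (without control library 3) and 2.07 (without control library 1), and a pseudocount of 1 FPKM gave 0.10. In Reg2 and Reg3b the Bcas2 cKO ratios lay below control library 1 and above control libraries 3 and 4. Reg3d had 12.6, 5.28 and 3.99 in control and 8.18, 4.96 and 6.99 in Bcas2 cKO, with a log2 difference of 0.03 (exact permutation p 1.0). It was 0.52 without control library 1, -0.11 and -0.31 without control libraries 3 and 4, -0.13 without Bcas2 cKO library 3 and -0.23 against all acinar enzymes, so its sign was not settled either. Reg3a, at 0 in 1 library, has no log ratio, and had 11.7, 0.122 and 0 in control and 3.51, 2.82 and 2.39 in Bcas2 cKO. Its order of libraries was split in the way of Reg2 and Reg3b.

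**Figure D3:**
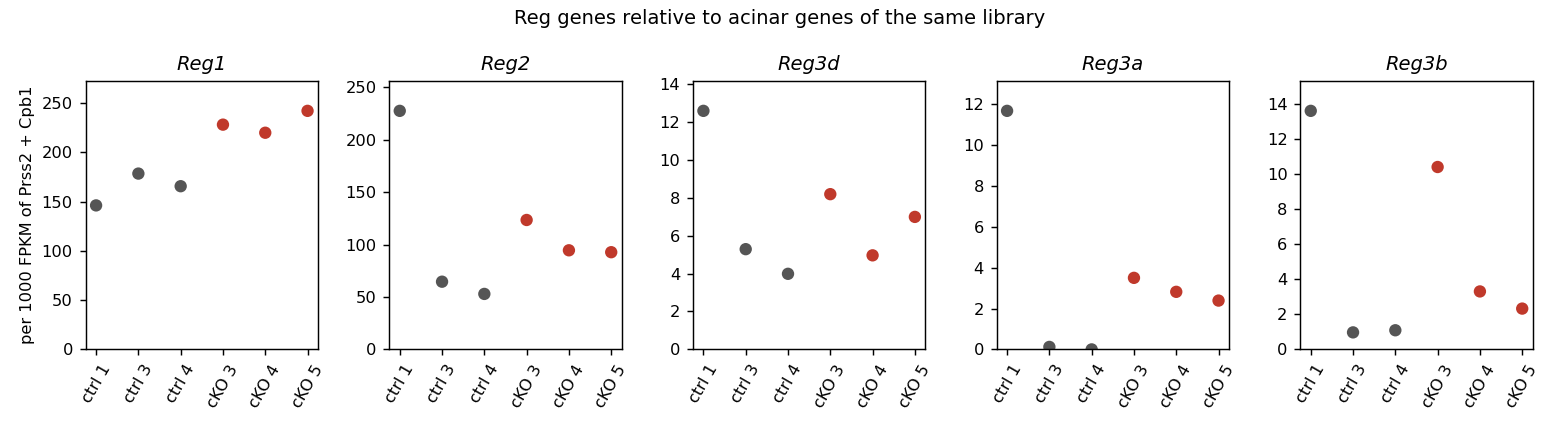
FPKM of 5 Reg genes per 1000 FPKM of Prss2 plus Cpb1 in the same library (grey, control; red, Bcas2 cKO), with vertical axes from 0. The 3 Bcas2 cKO libraries lie at 219.8 to 242 for Reg1, above all controls, while control library 1 is highest for the other 4 genes.

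The make-up of the Reg transcripts differed most in control library 1. Reg1 formed 35.5% of the summed Reg FPKM there, beside 71.5 and 74.0% in control libraries 3 and 4 and 61.0, 67.5 and 69.9% in Bcas2 cKO libraries 3, 4 and 5. Reg2 exceeded Reg1 only in control library 1, at 1.56 FPKM per FPKM of Reg1, and lay at 0.320 to 0.541 in the other 5. The 4 Reg3 genes together made up 9.27% in control library 1, 2.56 and 2.33% in control libraries 3 and 4, and 5.99, 3.45 and 3.39% in Bcas2 cKO libraries 3, 4 and 5. Of all reads on genes, the 6 members made up 0.0130 to 0.0506% among controls and 0.0548 to 0.140% among Bcas2 cKO libraries.

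**Figure D4:**
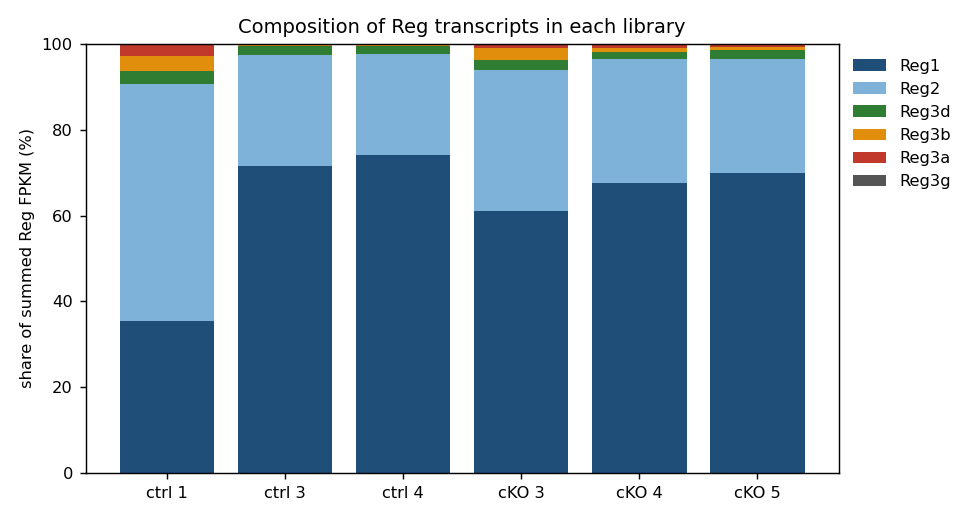
Share of each Reg gene in the summed FPKM of the 6 Reg genes, in percent, per library. Reg1 (dark blue) makes up 35.5% in control library 1 and 61.0 to 74.0% in the other libraries, and the Reg3 genes together reach 9.27% in control library 1.

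Variation within the groups also set Reg1 beside the acinar genes. After each group's mean was removed from log2(FPKM + 1), Pearson's r over the 6 libraries was 0.99 between Reg1 and Prss2 and 0.97 between Reg1 and Cpb1. The same values were 0.86 and 0.88 for Reg3d, 0.80 and 0.81 for Reg2, 0.70 and 0.71 for Reg3a and 0.43 and 0.47 for Reg3b. Of the 33 acinar enzyme genes 24 were among the 100 protein-coding genes most like Reg1, of 11434. For Reg3d 2 were, and for Reg2, Reg3a and Reg3b 0 were. Among the members r was 0.98 between Reg2 and Reg3a, 0.94 between Reg3a and Reg3b and 0.31 between Reg1 and Reg3b. For Reg3d it was 0.97 with Reg2, 0.92 with Reg3a, 0.81 with Reg1 and 0.80 with Reg3b. With Igkc, the kappa light chain constant region gene of plasma cells, r was 0.95 for Reg3b, 0.89 for Reg3a and 0.15 for Reg1. Igkc was chosen for its high value in control library 1, where Reg3a and Reg3b also stood high. Its r values therefore follow in part from that choice, and nothing is read from them. These are descriptions over 6 libraries, and the genes of a library share its depth and scaling.

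The 3 genes most like each member by this measure were Dqx1, the phospholipid transfer protein gene Pltp and Sycn for Reg1, and Psat1 of serine synthesis, Bicdl2 and the endothelial gene Pecam1 for Reg2. For Reg3a they were Spred3, the histone deacetylase gene Hdac1 and Als2cl, for Reg3b Asb11, Dock6 and Ppp1r3b, and for Reg3d Cchcr1, Lad1 and Stambpl1. Their r was 0.99 or more, as the highest of 11434 values over 6 libraries. Of these genes Sycn is on the acinar list.

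**Figure D5:**
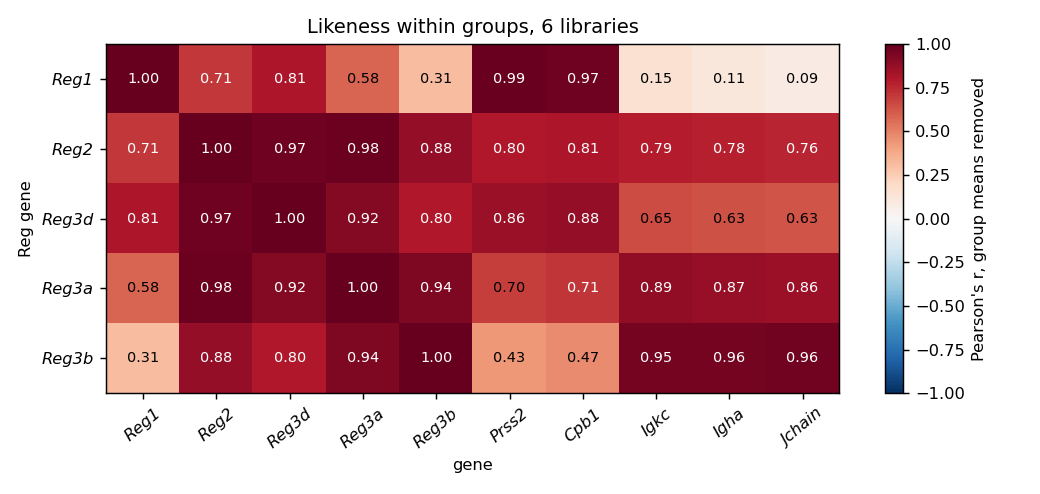
Pearson's r of log2(FPKM + 1) with group means removed, over 6 libraries, between 5 Reg genes (rows) and the Reg genes, 2 acinar genes and 3 plasma cell genes (columns), on a colour scale from -1 to 1. Reg1 has its highest values with Prss2 (0.99) and Cpb1 (0.97), and Reg3b with Igkc, Igha and Jchain (0.95 to 0.96). The plasma cell genes were chosen for their high values in control library 1, as Reg3b also had.

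The immunoglobulin genes Igkc and Igha were high in control library 1 and lowest in control libraries 3 and 4, as Reg3b was. Igkc was 158, 0.418 and 2.30 FPKM in control libraries 1, 3 and 4, and 88.9, 57.9 and 26.2 FPKM in Bcas2 cKO libraries 3, 4 and 5. For Igha, the IgA heavy chain gene, the controls had 57.7, 0 and 0.434 FPKM and the Bcas2 cKO libraries 33.8, 20.02 and 8.08 FPKM. In both, Bcas2 cKO library 3 came next to control library 1. Not all genes of the plasma cell list shared this order. For Mzb1, a plasma cell chaperone gene, the controls had 1.60, 1.23 and 1.73 FPKM and the Bcas2 cKO libraries 1.04, 1.13 and 1.22 FPKM. For Iglc1, a lambda light chain gene, the controls had 5.69, 0 and 0 FPKM and the Bcas2 cKO libraries 0, 0 and 0.511 FPKM. The 9 plasma cell genes summed to 252, 8.55 and 10.3 FPKM in control libraries 1, 3 and 4 and to 142, 91.9 and 49.98 FPKM in Bcas2 cKO, with Tnfrsf17, the plasma cell receptor gene, at 0 in all 6. Igkc had a log2 fold change of 2.53 (limma adjusted p 0.334), and 4.60 (adjusted p 0.0083) without control library 1. Bcas2 cKO library 5 was the lowest of its group in Igkc and Igha and the highest in Prss2, Cpb1, Reg1, Reg2, Reg3a and Reg3d. The part of plasma cell RNA in the Reg values was not tested.

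RNA levels were read for genes of the cytokine path that induces Reg genes, from ligands to targets. Of 12 inducing cytokine genes 3 reached the filter, and Il1b rose from 2.84 ± 0.998 to 7.73 ± 2.27 FPKM and Tnf from 0.835 ± 0.623 to 2.64 ± 0.130 FPKM (SD, n = 3 each). Il6, named after its values were seen and under the filter, was 0.0519, 0.153 and 0.0561 FPKM in control libraries 1, 3 and 4 and 0.931, 1.43 and 1.10 FPKM in Bcas2 cKO libraries 3, 4 and 5. In reads, these were 2, 5 and 2 in control and 41, 61 and 46 in Bcas2 cKO, too few to order the controls.

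Among 14 tested cytokine receptor genes, counted with Extl3, a proposed Reg receptor, 1 rose and 2 fell. Il6ra, the IL-6 receptor, fell from 32.4 ± 0.493 to 20.8 ± 1.71 FPKM and Lifr, the LIF receptor, from 12.1 ± 0.654 to 8.98 ± 0.484 FPKM, while Ifngr1, an interferon gamma receptor chain, rose by 0.34 on the log2 scale. Extl3 had means of 9.33 ± 0.625 (control) and 9.58 ± 0.913 FPKM (Bcas2 cKO; SD, n = 3 each).

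Of 11 signal and factor genes 3 rose and 1 fell. The C/EBP factor genes Cebpb and Cebpd rose by 1.96 and 1.37, the kinase gene Jak3 rose by 0.41 and Jak1 fell by 0.32 on the log2 scale. Stat3 did not pass, with 22.0, 16.0 and 19.0 FPKM in the controls and 29.0, 24.9 and 21.7 FPKM in Bcas2 cKO libraries 3, 4 and 5. Of 9 tested target and feedback genes 4 rose and 5 did not pass. The 4 that rose were Socs3, the feedback inhibitor of gp130 receptors (log2 fold change 2.48), Junb (2.34), the kinase gene Pim3 (0.97) and the phosphatase gene Ptpn2 (0.44). Socs3 was 12.95, 33.5 and 29.8 FPKM in control libraries 1, 3 and 4 and 131, 161 and 121 FPKM in Bcas2 cKO libraries 3, 4 and 5. Control library 1 was thus its lowest library. The part of this path in the Reg values was not tested.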

How the data were processed

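The authors deposited FPKM for 54532 genes, 1 column per library, per the file headers. The build was GRCm38 (mm10) per the submitters' processing notes. The sources used here do not give the aligner, counting program, strand setting or scaling between libraries. Multiplying by gene length and dividing by a constant of the library gave whole reads in every library (100% of values within 0.01 reads). These served for depth, floors of 3 reads and a voom alternative. The test was limma 3.58.1 in R 4.3.3 (eBayes with trend) on log2(FPKM + 1) of genes whose mean reached 1 FPKM, and p-values were adjusted over all 13723 genes. Expression is thus compared as log2 of the deposited values. The test was tried on simulated data with 200 changed genes. Ratios to Prss2 plus Cpb1 had exact permutation tests.

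The members and lists were chosen with earlier results of these data known. From each list up to 4 called genes with the largest change, or 2 of highest expression, are named where the text describes the list, and for each tested member the 3 genes with the highest within-group correlation. The plasma cell, lymphocyte and intestinal lists were added after values were seen. Il6, Ctf1, Bhlha15, Stat3, Extl3, Gcg, Igkc, Igha, Mzb1, Iglc1, Ctrb1, Cpa1 and Pnlip were named outside this rule. Other settings were another pseudocount, other filters, 4 scalings, other variance models, voom, an acinar covariate, a replicate block and leaving out each library. All 15 pairs of libraries differed beyond counting noise (chi-square at least 13.6 per degree of freedom). Tables and figures used scipy 1.17.1, pandas 2.3.3, matplotlib 3.10.9 and numpy 2.4.6 under Python 3.11.15.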

Additional observations from a re-analysis of the deposited data

How the results depend on the processing

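Leaving out 1 library moved the log2 fold changes between 1.51 and 2.34 for Reg1, 1.04 and 2.56 for Reg2, 0.91 and 2.92 for Reg3a, 1.0 and 2.72 for Reg3b, 0.87 and 2.0 for Reg3d, 1.05 and 1.85 for Prss2, 1.05 and 1.84 for Cpb1, and -0.52 and -0.27 for Bcas2. The members called ranged from 0 to 5, being 5 when control library 1 was left out and 0 when either other control or Bcas2 cKO library 4 was. All genes called ranged from 878 to 1950, against 1993 with all libraries, and were 1318 and 888 without control libraries 3 and 4 and 878, 921 and 928 without Bcas2 cKO libraries 3, 4 and 5. Without a filter on low values 0 members and 1144 genes passed, and Reg1 kept 1.97 with a limma adjusted p of 0.082. With the log acinar sum as a covariate, which does not overlap between the groups and so cannot be told apart from them, 0 members and 5 genes passed. The values were then 0.43 for Reg1, -0.90 for Reg2, -1.36 for Reg3a, -0.23 for Reg3b, -0.88 for Reg3d, -0.12 for Prss2 and -0.12 for Cpb1. Prss2 and Cpb1 passed at a mean of at least 5 FPKM (1.48 and 1.49), scaled without hormone genes (1.36 and 1.38), scaled without acinar and Reg genes (1.78 and 1.80) and with voom on reads (1.62 and 1.64). Bcas2 passed when scaled without hormone genes (-0.52) and was -0.14 (limma adjusted p 0.38) when scaled without acinar and Reg genes. The median of all genes, -0.03 as reported, was -0.12 without hormone genes, 0.23 without acinar and Reg genes and 0.11 with voom. The genes that rose and fell, 957 and 1036 as reported, were then 608 and 1249, 2335 and 213, and 1727 and 555. With a pseudocount of 0.1 FPKM Reg3a moved from 1.60 to 3.39 and Reg3g from 0.19 to 0.96. With voom Reg3a moved to 4.09 and Reg3b from 1.58 to 2.38. In these settings Reg3a and Reg3b were not past the test and Reg3g was not tested. The Reg1 ratio moved to 0.24 with the sum of all acinar enzymes. Voom scaled each library to its total of reads on genes, whereas the deposited FPKM use another depth. The cause of these shifts was not tested.

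The numbers 3 and 4 occur in both groups, and deviations of same-numbered libraries from their group means had r of -0.15 and 0.05. Whether they share more than a number is not stated and cannot be told from these values. A fit with the number as a block uses those 4 libraries alone, without control library 1. It called 5 members, and 646 of 13671 genes tested, of which 413 rose. Log2 fold changes were 2.21 for Reg2, 2.66 for Reg3a, 2.74 for Reg3b, 1.55 for Reg3d and 1.36 for Cpb1. Control library 1 was singled out for its high Reg values, so leaving it out raises these differences by construction. Nothing is read from the 5 calls or these values.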

Other observations

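Other cell type lists were read beside the Reg genes. Of 11 tested pancreas injury and ductal genes 2 rose, both keratin genes, with Krt8 at 83.6 ± 19.9 FPKM in control against 289 ± 69.7 FPKM and Krt18 at 73.1 ± 6.69 against 161 ± 20.6 FPKM (SD, n = 3 each). Of 9 tested macrophage genes 5 rose, among them the lysosomal gene Cd68 from 2.11 ± 0.368 to 5.62 ± 0.643 FPKM and the complement gene C1qc from 6.14 ± 0.467 to 9.83 ± 1.04 FPKM. Of 8 alpha, delta and PP cell genes 2 rose, the factor genes Irx1 by 0.51 and Irx2 by 0.37 on the log2 scale. Of 10 beta cell genes 3 fell, the peptide gene Ucn3 by 1.09, the glucose transporter gene Slc2a2 by 0.85 and the zinc transporter gene Slc30a8 by 0.72 on the log2 scale. The endothelial genes Plvap and Kdr were 72.0 ± 9.66 and 72.3 ± 14.3, and 15.1 ± 0.635 and 13.7 ± 1.12 FPKM, in control and Bcas2 cKO.

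The lymphocyte and intestinal lists did not set control library 1 apart as the plasma cell list did. B and T cell genes summed to 8.55 to 15.1 FPKM in control and 5.84 to 8.69 FPKM in Bcas2 cKO. Intestinal epithelium genes summed to 68.0 to 73.0 FPKM and 51.7 to 58.3 FPKM, with the defining genes Fabp1 and Cdx1 at 0 in every library.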
